A study of Nothobranchius furzeri with 3 samples.

Results

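Of the 324 features in a small RNA count table of killifish skin, 6 carry names linked to the control of cell proliferation. They were chosen by name, with earlier results of these data known. The features nfu-mir-17, nfu-mir-19, nfu-mir-25 and nfu-mir-92 represent the miR-17-92 clusters, and nfu-mir-15 and nfu-mir-16 represent the miR-15/16 family. All 6 were found in the table and all 6 had counts in every library. The prefix nfu stands for the turquoise killifish, Nothobranchius furzeri, and is left out below. The series held 3 skin samples from male fish of the strain MZM-04/10p at 39 weeks of age, all in 1 group with no treatment stated. They are numbered as libraries 1, 2 and 3 by accession. The sample titles carry a different code for each library, but it is not stated in the labels that each library came from its own fish. Either way, the spread between these libraries may be partly technical. The p-values below refer to these libraries only. Those of the chi-square test set their differences against counting error alone, while those of the permutation test take the libraries as units.

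A miRNA is a short RNA that guides a silencing complex to messenger RNAs, mainly through its seed, a few bases near its 5′ end. In vertebrates the miR-17-92 genes are transcribed together from 1 precursor and have paralogous clusters, among them the one that holds miR-25. They are activated by MYC and known to promote proliferation and survival. Targets of miR-17 include the cell cycle inhibitor p21 and the pro-death protein BIM. miR-25 and miR-92 share a seed. miR-15 and miR-16 also share a seed, are transcribed as neighbours, and are known to lower cyclins and the survival protein BCL2, which slows entry into the cell cycle. In mammals the loss of miR-15/16 is known from chronic lymphocytic leukaemia.

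The libraries held 5021238, 8545292 and 9590428 counts, so each member rested on at least 2885 counts and the counting error of a share was small against the spread between libraries. Shares are percent of all counts of a library, with 95% exact binomial intervals. Levels compared between libraries are counts per 1000000 (CPM) scaled by the trimmed mean of M-values (TMM). Adapter ligation favours some sequences over others, which biases the ratio of one miRNA to another. That ratio's change from library to library escapes this only if the bias was alike in all libraries and no feature pools several sequences. Neither was tested. The names give neither arm nor gene copy, and the name mir-17 may also cover its close relatives miR-18, miR-20, miR-93 and miR-106, since none of these has a feature of its own. Among cell type markers, the 2 listed erythroid features took 0.113%, 0.226% and 0.0509% of libraries 1, 2 and 3, and the 3 listed muscle features took 1.64%, 0.667% and 2.23%. In bulk tissue, more cells of a type and more of a miRNA per cell cannot be told apart.

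The 4 features of the miR-17-92 clusters together took 1.65% of library 1 (95% interval 1.64 to 1.66), 2.06% of library 2 (2.05 to 2.07) and 2.63% of library 3 (2.62 to 2.64). mir-92 led them, with 56993 counts in library 1, 123910 in library 2 and 197389 in library 3. Its shares were 1.14% (1.13 to 1.14), 1.45% (1.44 to 1.46) and 2.06% (2.05 to 2.07), so no library's interval overlapped another's and library 3 stood highest. mir-92 made up 68.8%, 70.3% and 78.3% of the counts of the 4 features in libraries 1, 2 and 3. The summed share thus followed mir-92 and says little about the other members.

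mir-25, which shares its seed with mir-92, was the next most abundant, with 19563, 26063 and 38498 counts in libraries 1, 2 and 3. Its shares were 0.390% (0.384 to 0.395), 0.305% (0.301 to 0.309) and 0.401% (0.397 to 0.405), and library 2 was the lowest. The feature therefore moved against mir-92 between libraries 1 and 2, where mir-92 was higher in library 2. Within the 4 features, the part taken by mir-25 was 23.6% in library 1 but 14.8% in library 2 and 15.3% in library 3.

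mir-17, the member that names the cluster, had 3391, 12440 and 9006 counts in libraries 1, 2 and 3. Its shares were 0.0675% (0.0653 to 0.0698), 0.146% (0.143 to 0.148) and 0.0939% (0.0920 to 0.0959), with library 2 above the others. mir-19, known in mouse lymphoma as the member on which the cluster's tumour-promoting action mainly rests, had 2885, 13793 and 7324 counts. It took 0.0575% (0.0554 to 0.0596), 0.161% (0.159 to 0.164) and 0.0764% (0.0746 to 0.0781) of libraries 1, 2 and 3. Both features were thus high in library 2 and lowest in library 1. Their SDs were 38.8% and 56.3% of their means (n = 3), against 30.3% for mir-92 and 14.4% for mir-25. Without library 2 the mean share of mir-19 was 0.0669% in place of 0.0984%, and that of mir-17 was 0.0807% in place of 0.102%.

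The miR-15/16 pair took 0.341% of library 1 (0.335 to 0.346), 0.452% of library 2 (0.447 to 0.456) and 0.390% of library 3 (0.386 to 0.394). mir-16, the more abundant, had 11846, 24527 and 23343 counts. Its shares of 0.236% (0.232 to 0.240), 0.287% (0.283 to 0.291) and 0.243% (0.240 to 0.247) gave the smallest relative spread of the 6 members, an SD of 10.8% of the mean. mir-15 had 5255, 14058 and 14095 counts and took 0.105% (0.102 to 0.108), 0.165% (0.162 to 0.167) and 0.147% (0.145 to 0.149). Its SD was 22.2% of the mean, and library 1 was the lowest. The part of mir-16 in the pair was 69.3%, 63.6% and 62.4% in libraries 1, 2 and 3.

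**Figure D1:**
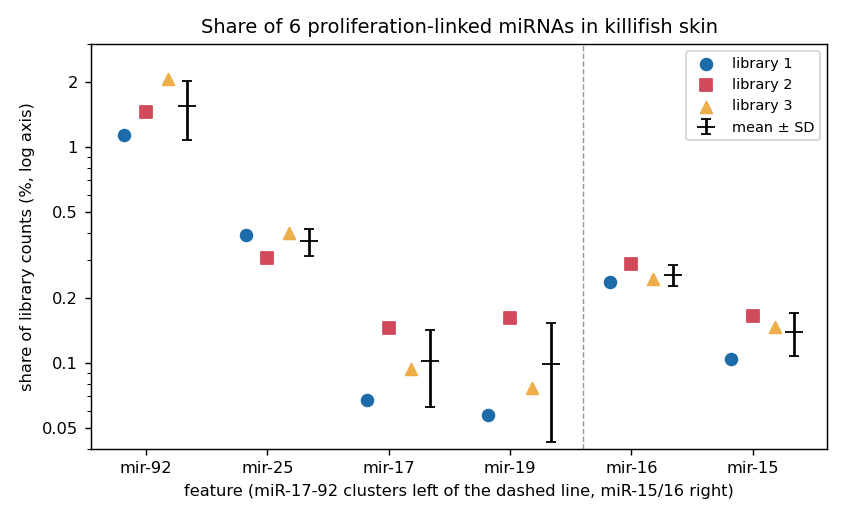
Share of library counts in percent (log axis) for each of the 6 features, with 1 symbol per library and the mean ± SD of the 3 libraries beside them. mir-92 lies between 1.14% and 2.06%, above every other member in every library, while library 2 is the highest for mir-17, mir-19, mir-16 and mir-15 and the lowest for mir-25.

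In the whole profile mir-92 ranked 12 of 324 by mean share, mir-25 ranked 24, mir-16 ranked 29, mir-15 ranked 39, mir-17 ranked 41 and mir-19 ranked 43. The ranks moved little between libraries for mir-92, from 14 in library 1 to 12 in the other libraries, and for mir-25, from 22 in library 1 to 24 in the others. The widest move was that of mir-19, at 47, 38 and 46 in libraries 1, 2 and 3. mir-92, at a mean of 1.55% ± 0.469 (SD, n = 3), stood between mir-337 at 1.73% ± 0.848 and mir-199 at 1.49% ± 0.643, and these means differed by less than their SDs. mir-25 at 0.365% ± 0.0526 stood between mir-192 at 0.367% ± 0.238 and mir-203 at 0.356% ± 0.139, and mir-16 at 0.255% ± 0.0276 stood between mir-221 at 0.315% ± 0.110 and mir-146 at 0.251% ± 0.0836. mir-15 at 0.139% ± 0.0308 lay below mir-142 at 0.161% ± 0.0685 and above mir-29 at 0.107% ± 0.0357. Below mir-29 came mir-17 at 0.102% ± 0.0397, mir-24 at 0.0986% ± 0.00545, mir-19 at 0.0984% ± 0.0554 and the predicted feature pred_580 at 0.0983% ± 0.0339. Of these 12 pairs of neighbours, 11 changed their order between libraries. The exception was mir-15, which had 1.56, 1.21 and 1.24 times the counts of mir-29 in libraries 1, 2 and 3. Neighbours were picked as adjacent in mean share over these same libraries, which makes changes of order likely. Other adjacent pairs were not counted.

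**Figure D2:**
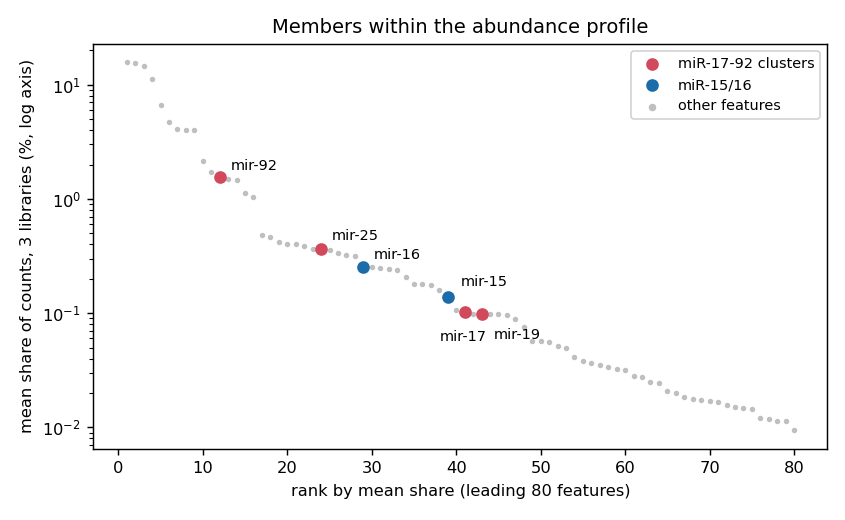
Mean share of counts over the 3 libraries in percent (log axis) against rank, for the leading 80 of 324 features, with the members in colour. mir-92 sits at rank 12, and the other 5 members lie between ranks 24 and 43.

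Ratios of raw counts within 1 library need no scaling between libraries. All 15 pairs of the 6 members were compared, and 14 kept 1 order in all 3 libraries: mir-92 above mir-25, then mir-16, mir-15 and, last, mir-17 and mir-19. The exception was the last pair, in which mir-17 exceeded mir-19 1.18-fold in library 1 (95% counting interval 1.12 to 1.24) and 1.23-fold in library 3 (1.19 to 1.27) but stood at 0.902 (0.880 to 0.924) in library 2. Among the 14, mir-15 and mir-19 were nearly equal in library 2, at a ratio of 1.02 (0.995 to 1.04). Members far apart in abundance are likely to keep their order, and pairs of other features were not counted. Each of the 14 pairs gave p = 0.25 when the signs of the 3 log2 ratios were flipped in an exact two-sided permutation test, the smallest this design allows. After Benjamini-Hochberg adjustment over the 15 pairs that p was 0.268, so no order could pass 0.05.

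Within the miR-17-92 clusters, mir-92 had 2.91, 4.75 and 5.13 times the counts of mir-25 in libraries 1, 2 and 3, which averaged to a log2 ratio of 2.05 ± 0.44 (SD, n = 3). Over mir-17 its lead was 16.8-fold, 9.96-fold and 21.9-fold (log2 3.95 ± 0.58), and over mir-19 it was 19.8-fold, 8.98-fold and 27.0-fold (log2 4.07 ± 0.82). mir-25 exceeded mir-17 by 5.77-fold, 2.10-fold and 4.27-fold (log2 1.90 ± 0.75). The ratio of mir-25 to mir-19 was the most variable of the 15, at 6.78 (6.52 to 7.05), 1.89 (1.85 to 1.93) and 5.26 (5.13 to 5.39), a 3.59-fold range. In library 2 the distance of both mir-25 and mir-92 from mir-17 and mir-19 was the smallest. The summed counts of mir-25 and mir-92 were 12.2, 5.72 and 14.4 times those of mir-17 and mir-19 in libraries 1, 2 and 3.

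Between the groups, the summed miR-17-92 counts were 4.84 times the summed miR-15/16 counts in library 1 (4.76 to 4.92), 4.57 times in library 2 (4.52 to 4.62) and 6.74 times in library 3 (6.66 to 6.81). The mean log2 ratio was 2.41 ± 0.30 (SD, n = 3), and most of it came from mir-92. With mir-92 left out, the other 3 features had 1.51 (1.48 to 1.54), 1.36 (1.34 to 1.37) and 1.46 (1.45 to 1.48) times the counts of mir-15 and mir-16, a mean log2 ratio of 0.53 ± 0.08. mir-17 and mir-19 alone were below miR-15/16 in every library, at 0.367 (0.356 to 0.378), 0.680 (0.669 to 0.691) and 0.436 (0.428 to 0.444) of its counts. Which group was the more abundant therefore depended on the members counted, with mir-92 and mir-25 above both features of the pair and mir-17 and mir-19 below both, except that mir-19 had nearly the counts of mir-15 in library 2, where mir-15 stood at 1.02 times mir-19 (0.995 to 1.04).

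Across groups, mir-92 had 4.81, 5.05 and 8.46 times the counts of mir-16 in libraries 1, 2 and 3 (log2 2.56 ± 0.45). mir-25 exceeded mir-16 1.65-fold in libraries 1 and 3 but 1.06-fold (1.04 to 1.08) in library 2. Within the pair, mir-16 had 2.25 (2.18 to 2.33), 1.74 (1.71 to 1.78) and 1.66 (1.62 to 1.69) times the counts of mir-15. That was the steadiest of the 15 ratios, with a 1.36-fold range, close to that of mir-17 to mir-19. The ratio of mir-15 to mir-17, of different groups, was almost as steady, with a 1.38-fold range. That of mir-92 to mir-25, which share a seed, had a 1.76-fold range. Of the 15 ratios, each written with the more abundant member first, 12 were lowest in library 2 and 0 were highest there. The 15 ratios share members and are not independent of each other.

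**Figure D3:**
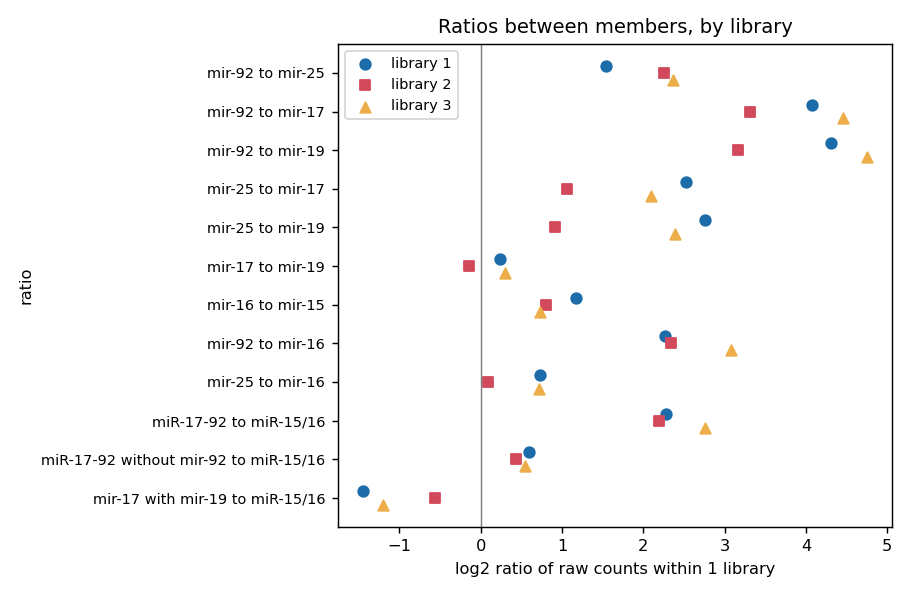
log2 ratio of raw counts within each library for 9 of the 15 pairs of members and 3 ratios of sums, with 1 symbol per library and the line at 0 marking equal counts. Library 2 lies furthest left for each ratio of mir-92 or mir-25 to mir-17 or mir-19, and mir-17 to mir-19 crosses 0.

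The counts of all 6 members differed between the libraries by more than counting error, by a chi-square test with Benjamini-Hochberg adjustment over all 158 features with mean counts of 10 or more, the largest adjusted p being 9.1e-99. This compares these libraries, not conditions, and it separates the members from little else, since the test called 81.6% of those 158 features and 97.4% of the 115 features with mean counts of 100 or more, to which the members belong. After TMM scaling the CPM of mir-19 were 611, 1628 and 711 in libraries 1, 2 and 3, so library 2 exceeded library 1 2.66-fold (95% counting interval 2.56 to 2.77) and library 3 2.29-fold (2.22 to 2.35). mir-17 had 719, 1469 and 875 CPM, and library 2 exceeded library 1 2.04-fold (1.97 to 2.12) and library 3 1.68-fold (1.63 to 1.73). Without library 2 the highest library exceeded the lowest by 1.16-fold for mir-19 and 1.22-fold for mir-17. Leaving out the highest library of a feature narrows its range by design. For mir-92, highest in library 3, the range without that library was 1.12-fold.

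The other members varied less. mir-92 had 12077, 14629 and 19175 TMM-scaled CPM, and library 3 exceeded library 1 1.59-fold (1.57 to 1.60). mir-15 had 1114, 1660 and 1369 CPM, a 1.49-fold range, mir-25 had 4145, 3077 and 3740 CPM, a 1.35-fold range, and mir-16 had 2510, 2896 and 2268 CPM, a 1.28-fold range. Of the 6 members, 2 varied more than 2-fold, against 46.1% of the 115 features with mean counts of 100 or more, and the median range was 1.54 for the members and 1.92 for those 115 features. Many of those 115 features were rarer than every member, and no set of like abundance was compared. These values therefore do not show the members to be steadier than features of their own abundance. The range of mir-17 fell to 1.84 with DESeq2 size factors. mir-16 ranked 98 and mir-25 ranked 95 of 115 from the widest range, while mir-19 ranked 31. The tagwise coefficient of variation from edgeR ran from 0.365 for mir-92 to 0.503 for mir-19, beside a median of 0.420 over the 158 features. These values are drawn toward those of features of like abundance, so they do not order the members by their own spread. mir-16, with a narrower range than mir-92, had the higher value of 0.375.

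**Figure D4:**
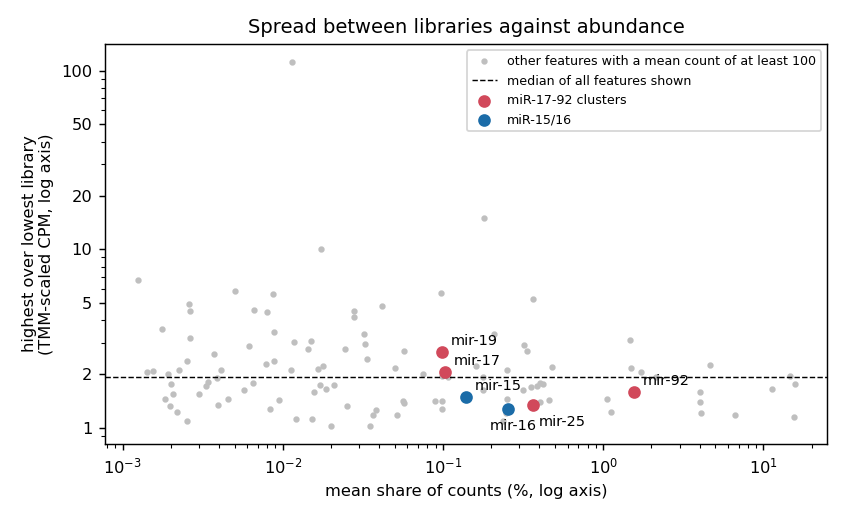
Highest over lowest library in TMM-scaled CPM (log axis) against mean share in percent (log axis) for the 115 features with mean counts of 100 or more, with the members in colour. mir-19 at 2.66 and mir-17 at 2.04 lie above the dashed median of 1.92, and the other 4 members, between 1.28 and 1.59, lie below it.

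Library 2 was the highest for mir-17, mir-19, mir-15 and mir-16, 4 of the 6 members, and 41.7% of the 115 features were highest in that library. For these 4 members the highest library was the same under TMM, TMM on features with mean counts of 10 or more, DESeq2 size factors and library totals, though the log2 difference of mir-16 between libraries 2 and 1 ran from 0.01 to 0.28 over these scalings. mir-92 was highest in library 3 and lowest in library 1, and mir-25 was lowest in library 2, under all 4 scalings. The highest library of mir-25 was library 1 under 3 scalings and library 3 with library totals, and the lowest of mir-16 was library 3 under 3 scalings and library 1 with library totals. Relative to TMM, the level of library 2 over library 1 moved by -0.16 (log2) with DESeq2 size factors and by -0.19 with TMM on features with mean counts of 10 or more, and library 3 over library 1 moved by 0.19 with library totals. mir-92 and mir-19, both encoded by the miR-17-92 cluster, thus peaked in different libraries under each scaling. The names do not give the gene copy, so whether the counts of both features came from the same precursor is not known.

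**Figure D5:**
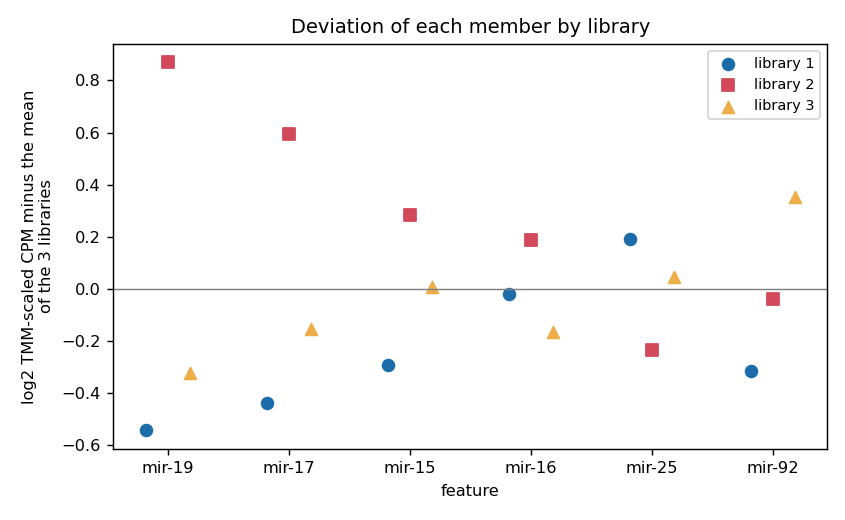
log2 TMM-scaled CPM of each member minus its own mean over the 3 libraries, with 1 symbol per library. Library 2 lies highest for mir-19 (0.87), mir-17 (0.59), mir-15 (0.28) and mir-16 (0.19) and lowest for mir-25 (-0.24), while library 3 lies highest for mir-92 (0.35).

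Likeness between patterns was measured as the Euclidean distance between the deviations of features over the 3 libraries, in log2 units, where the median over all pairs of the 115 features was 1.02 and the lower quartile 0.621. mir-17 and mir-19 were 0.342 apart and mir-15 and mir-16 were 0.337 apart, but mir-17 and mir-15, of different groups, were also close, at 0.378. mir-25 and mir-92, with their shared seed, were 0.626 apart, further than mir-92 from mir-15 (0.473) or mir-25 from mir-16 (0.519), and the furthest members were mir-19 and mir-25, at 1.38. From mir-19, mir-17 ranked 8 of 114 features by distance, and from mir-17, mir-19 ranked 14. From mir-15, mir-16 ranked 8, but from mir-16, mir-15 ranked 23. From mir-25, mir-92 ranked 46, and from mir-92, mir-25 ranked 36. Features outside the 6 thus lay nearer to each of these members than its partner did. The 3 nearest features outside the 6 were mir-365, mir-223 and let-7 for mir-19 (0.0887, 0.160 and 0.199), mir-155, mir-8 and mir-22 for mir-92 (0.123, 0.138 and 0.139), and mir-132b, mir-23 and mir-214 for mir-16 (0.0528, 0.0665 and 0.0976). The TMM-scaled CPM of let-7, known to restrain proliferation, were 33249, 74299 and 32912 in libraries 1, 2 and 3. mir-223, a miRNA of granulocytes and macrophages, had 363, 973 and 370. With 3 libraries these distances are a description of these samples and carry no test.

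Few other names of related miRNAs had a feature in the table. The names do not show whether reads of such relatives were pooled under the features present. Of 6 other names of the miR-17-92 clusters (mir-18, mir-20, mir-91, mir-93, mir-106 and mir-363), 0 had a feature. Of 8 other names that share the core of the miR-15/16 seed, 1 had a feature, mir-103, a miRNA from introns of pantothenate kinase genes in vertebrates, with 343, 351 and 350 TMM-scaled CPM. mir-16 had 7.32, 8.24 and 6.49 times and mir-15 had 3.25, 4.73 and 3.92 times the counts of mir-103 in libraries 1, 2 and 3. miR-34, which p53 induces to halt the cell cycle, had 110, 138 and 166 counts as the feature mir-34, and its adjusted p of 0.055 in the chi-square test did not pass. Its relative mir-449 had 3, 3 and 5 counts and was too low to test. mir-145, another miRNA linked to p53 and abundant in smooth muscle, was highest in library 1, at 3731 TMM-scaled CPM against 1112 in library 2 and 1497 in library 3, and its counts differed beyond counting error.

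Of 4 other names known to promote proliferation, 3 had a feature, and the counts of all 3 differed beyond counting error, as did 97.4% of features of that abundance. mir-21, a miRNA raised in many tumours, had 43392, 30077 and 47476 TMM-scaled CPM, mir-221, which targets the cell cycle inhibitor p27, had 2706, 2517 and 4118, and mir-155, a miRNA of activated leukocytes, had 77.3, 92.4 and 110.0. All 3 were highest in library 3, as mir-92 was, and mir-92 had 0.278, 0.486 and 0.404 times the counts of mir-21. Among the listed cell type markers, the epidermal mir-205 and mir-8 and the muscle marker mir-133 were also highest in library 3. By contrast, mir-451, mir-144, mir-142 and mir-223 were highest in library 2 and mir-146 in library 1. The share of all features highest in library 3 was not computed here. The shared peak is therefore not read as a trait of the names known to promote proliferation. Of 5 names known to restrain proliferation, all 5 had a feature and differed beyond counting error, against the same 97.4%. let-7 (values above), mir-29 with 715, 1372 and 1100 CPM and mir-101 with 3221, 7053 and 4062 CPM were highest in library 2, as were mir-15 and mir-16 but also mir-17 and mir-19. Library 2 was the highest for 41.7% of the 115 features with mean counts of 100 or more. mir-26 and mir-203 were highest in library 3, at 168452 and 4813 CPM. The highest library of these 8 features was the same under all 4 scalings.

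The listed cell type markers also differed between the libraries, and their part in the levels of the members was not tested. Of 3 erythroid names, 2 had a feature, and their summed level was 1205, 2277 and 474 TMM-scaled CPM in libraries 1, 2 and 3. Like mir-17 and mir-19 it was highest in library 2, but it was lowest in library 3, where mir-17 and mir-19 stood above their level in library 1. The counts of mir-17 were 0.866, 0.810 and 2.76 times, and those of mir-19 0.737, 0.898 and 2.25 times, those of the erythroid mir-451. All 5 leukocyte names had a feature, and their sum was 5068, 5062 and 4287 CPM, of which 2 features were highest in library 2, mir-142 with 1330, 2416 and 1090 CPM and mir-223. mir-146, the most abundant of the 5, was lowest there, at 3287, 1567 and 2696 CPM, and mir-150 and mir-155 were highest in library 3. The muscle sum, from 3 of 4 names, was 17396, 6731 and 20812 CPM and so lowest in library 2. The epidermal sum, from 4 of 5 names of which mir-200 had 0 counts in every library, was 67109, 72038 and 81358 CPM. mir-8, also in this sum, had 3401, 3939 and 4728 CPM. The names do not show whether reads of miR-200 were counted under another feature. mir-205, a marker of stratified epithelium, held 6.63% ± 1.01 of counts (SD, n = 3), more than any member of the miR-17-92 clusters or miR-15/16 in every library. The series held no other tissue to set this share against, so it is no check of the skin label.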

How the data were processed

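The authors deposited raw read counts per miRNA name, 1 column per library, neither normalized nor pooled. Per the labels' protocols, small RNA libraries were built from total RNA with Illumina's TruSeq kit. BWA 0.7.12-r1039, SAMtools 1.3.1-9, Trimmomatic 0.36 and bcl2fastq 1.8.4 are named, without their roles, in the submitters' processing notes. Not given in the sources used here are the genome build, the miRNA annotation and the rule for reads with several matches, and names shared by related miRNAs may pool or lose such reads. No genome or miRNA sequence was used, and 0 of 324 names were found in the RefSeq gene table, so no sequence or position is printed.

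The members and lists were chosen with earlier results of these data known. From the counts, shares with exact binomial (Clopper-Pearson) 95% intervals and ratios with conditional binomial intervals were computed; they cover counting error only, as no molecular identifiers are mentioned and reads may include PCR copies. TMM factors (0.94, 0.99 and 1.07) and the coefficient of variation came from edgeR 4.0.16 with an intercept only, size factors from DESeq2 1.42.0. The chi-square test took library totals as expectation. It was fitted over all features with mean counts of 10 or more, at an adjusted p of 0.05. It was tried on simulated counts whose only random spread was counting error. Such a trial does not show how the test behaves on libraries that vary more, as these did. The coefficient of variation was also tried on simulated data. With 1 group no contrast could be tested. The named features were the 6 members, their neighbours in mean share, the 3 features nearest in pattern to mir-92, mir-16 and mir-19 among those with mean counts of 100 or more, and the listed related and marker miRNAs. Python 3.11.15, with scipy 1.17.1, pandas 2.3.3 and numpy 2.4.6, and R 4.3.3 were used.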

Additional observations from a re-analysis of the deposited data

How the results depend on the processing

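No paired analysis was possible because the series has 1 group. With mir-204, the most abundant feature, left out of the totals, the summed miR-15/16 share was 0.469% in place of 0.394%, and the miR-17-92 share was 2.50% in place of 2.11%. The log2 ratio of the groups was 0.53 without mir-92 and 0.49 as the mean of the members' log2 counts, in place of 2.41. With each library left out it ran from 2.23 to 2.51, the miR-17-92 share from 1.86% to 2.35% and the miR-15/16 share from 0.365% to 0.421%. The highest library over the lowest ran from 1.22 to 1.89 for mir-17 and from 1.16 to 2.47 for mir-19 when libraries were left out in turn, with the lowest values without library 2. The common coefficient of variation was 0.456, and it was 0.462 with library totals, 0.474 for features with mean counts of 100 or more, 0.300 as DESeq2's median over features, and 0.371 to 0.482 with each library left out. Of 15 pairs, 11 kept their order by at least 1.5-fold in every library. The chi-square test called all 6 members under every alternative run, but it also called most of the features tested. That share was 81.6% with TMM sizes, 97.4% for mean counts of 100 or more and 54.1% with no count filter. With each library left out it ran from 69.2% to 75.9%. The largest adjusted p of a member in this test was 0.0086 without library 2. Scaling by library totals, chosen after seeing the data, gave the same 9 nearest features. That had to be so, because a change of scaling shifts all features of a library alike and leaves the distances between them unchanged. Members lie far above the limit of depth, where 0 counts allow up to 0.597 CPM.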
